A study of Mus musculus with 8 samples.

Results

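The IGHV8 genes are the mouse VH3609 family of immunoglobulin heavy-chain variable segments. Every gene whose name begins with IGHV8 in the heavy-chain read tables was taken, which gave 12 of 159 VH genes, along with every complete heavy-chain CDR3 whose listed V genes all belonged to IGHV8, which gave 43 of 3882 clonotypes. Each different full CDR3 nucleotide sequence counts as 1 clonotype, and the CDR3 is the stretch where the V, D and J segments have been joined. The samples were 4 Setd2 knockout and 4 control preparations of primary pro-B cells, sorted as B220+ Cd43+ IgM- CD25- from the bone marrow of untreated 8-week-old mice. Poly-A RNA was read in single 75-base reads, and all samples carried 1 sequencing batch label. The Setd2 allele, any Cre driver and the animal behind each replicate number are not given in the labels, so p-values reflect only how far these samples differ among themselves, and that spread may be technical. Group values are means ± SD (n = 4 each) where no other n is given.

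The heavy chain is assembled in pro-B cells by joining a D to a J segment and then a V to the joined DJ. The VH3609 genes lie in the distal part of the locus, scattered among genes of the large J558 family (IGHV1), and joining of distal V genes depends on contraction of the locus, which is driven by Pax5 and other factors. Repeats named PAIR elements lie upstream of several VH3609 genes and carry Pax5 and CTCF sites. Setd2 is a methyltransferase of histone H3 that acts on transcribed genes.

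The 3′ ends of the germline segments are shown because they are the part of each gene that enters the CDR3. They were read from the GENCODE M21 transcripts (GRCm38, chromosome 12, minus strand), and the capitals mark the bases from the codon of the conserved cysteine onward.
IGHV8-12: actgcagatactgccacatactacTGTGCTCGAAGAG
IGHV8-8: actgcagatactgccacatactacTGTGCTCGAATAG
IGHV8-11: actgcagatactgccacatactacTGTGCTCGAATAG
IGHV8-5: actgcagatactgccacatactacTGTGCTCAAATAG
IGHV8-9: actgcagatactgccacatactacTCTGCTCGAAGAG
IGHV8-10: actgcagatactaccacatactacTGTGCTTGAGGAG
IGHV8-8 and IGHV8-11 end alike and encode isoleucine at the fourth codon of the CDR3, where IGHV8-12 encodes arginine. IGHV8-5 encodes glutamine at the third codon, where those 3 genes encode arginine. IGHV8-9 has a serine codon in place of the conserved cysteine, and IGHV8-10 has a stop codon (TGA) in frame. The 12 segments were 78.9% to 98.3% identical over 66 pairs, and IGHV8-5, IGHV8-8 and IGHV8-12 were 93.7% to 94.7% identical to each other. The authors' counting could divide reads between such close copies, so values of single genes are uncertain to that extent.

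GENCODE M21 annotates 16 IGHV8 genes, and the other 4 are pseudogenes (IGHV8-1, IGHV8-3, IGHV8-15 and IGHV8-16) that had no entry among the counted genes. Of the 12 genes seen, IGHV8-7, IGHV8-10 and IGHV8-14 are annotated there as pseudogenes and the other 9 as V genes. The most proximal was IGHV8-2 (chr12:114462290-114462589, mm10), 937 kb from the D gene nearest the V genes. The most distal was IGHV8-14 (chr12:115808427-115808727), 2283 kb away. IGHV8-5 (chr12:115067560-115067860), IGHV8-6 (chr12:115165777-115166077), IGHV8-8 (chr12:115294066-115294362) and IGHV8-12 (chr12:115647945-115648245) lie between them, at 1542, 1641, 1769 and 2123 kb. So do IGHV8-4 (chr12:115024026-115024318), IGHV8-7 (chr12:115258139-115258432), IGHV8-9 (chr12:115468331-115468632), IGHV8-10 (chr12:115519340-115519640), IGHV8-11 (chr12:115567149-115567449) and IGHV8-13 (chr12:115765335-115765635). The counted regions were 293 to 302 bases long and cover the V exon, so read numbers can be set side by side between members.

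VH reads numbered 1637 to 56542 in knockouts and 35505 to 53071 in controls, and knockout 3 was the sample of 1637. Of 7 constant-region genes fixed as markers of other B-lineage cells (IGHG1, IGHG2B, IGHG2C, IGHG3, IGHA, IGHE and IGHD), 7 had reads in every sample. The switched classes together made up 6.69% to 44.2% of constant-region reads in knockouts and 51.0% to 57.6% in controls, with 6.69% in knockout 3. IGHM, the unswitched class, made up 55.4% to 92.7% in knockouts and 41.4% to 48.0% in controls, so the groups did not overlap in either measure. The part of these differences in the IGHV8 results was not tested. Setd2 RNA and the genes that define pro-B cells lie outside the immunoglobulin tables and were not analysed here.

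The share of IGHV8 among VH reads was the first measure of family use. It was lower in 3 of 4 knockouts than in any control, and the family's difference did not pass the test over all families. IGHV8 reads made up 1.15%, 0.854%, 2.69% and 0.439% of VH reads in knockouts 1 to 4, from 293, 191, 44 and 248 reads. They made up 2.77%, 1.90%, 2.13% and 3.14% in controls 1 to 4, from 1082, 1010, 755 and 1419 reads. Knockout 3 fell within the control range and the other knockouts lay below it. Its 44 reads give a 95% Wilson interval of 2.01% to 3.59%, while the highest of the other 3 knockouts, knockout 1, had an interval of 1.02% to 1.29% and the lowest control, control 2, one of 1.79% to 2.02%.

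The family averaged 1.28% ± 0.981 in knockouts and 2.48% ± 0.570 in controls. In edgeR's quasi-likelihood test over 15 VH families the log2 fold change was -0.98 (SE 0.67, Benjamini-Hochberg adjusted p = 0.548). By that test 13.3% of families were called, IGHV13 and IGHV9, both lower in knockouts, each with adjusted p = 0.0362. IGHV8 was the fourth of 15 by p. Leaving out knockout 3 gave a knockout mean of 0.813% and a log2 fold change of -1.61 (edgeR, Benjamini-Hochberg adjusted p = 0.17). With DESeq2 and all samples it was -0.40 (Benjamini-Hochberg adjusted p = 0.538).

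Set against all heavy-chain locus reads, which include constant regions, the groups separated. IGHV8 made up 0.536%, 0.462%, 0.364% and 0.247% of locus reads in knockouts 1 to 4. Controls 1 to 4 had 1.20%, 1.13%, 1.17% and 1.86%. Every knockout lay below every control on this scale, knockout 3 included. How many other VH families separate on this scale was not examined, and with this library size 26 of 130 VH genes were called by edgeR. With locus reads as library size the log2 fold change was -1.74 (edgeR, Benjamini-Hochberg adjusted p = 0.108), which again did not pass. All VH reads together were 13.5% of locus reads in knockout 3 and 43.4% to 59.4% in the other 7 samples. In bulk RNA, fewer cells that joined an IGHV8 gene and less heavy-chain RNA per such cell cannot be told apart.

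**Figure D1:**
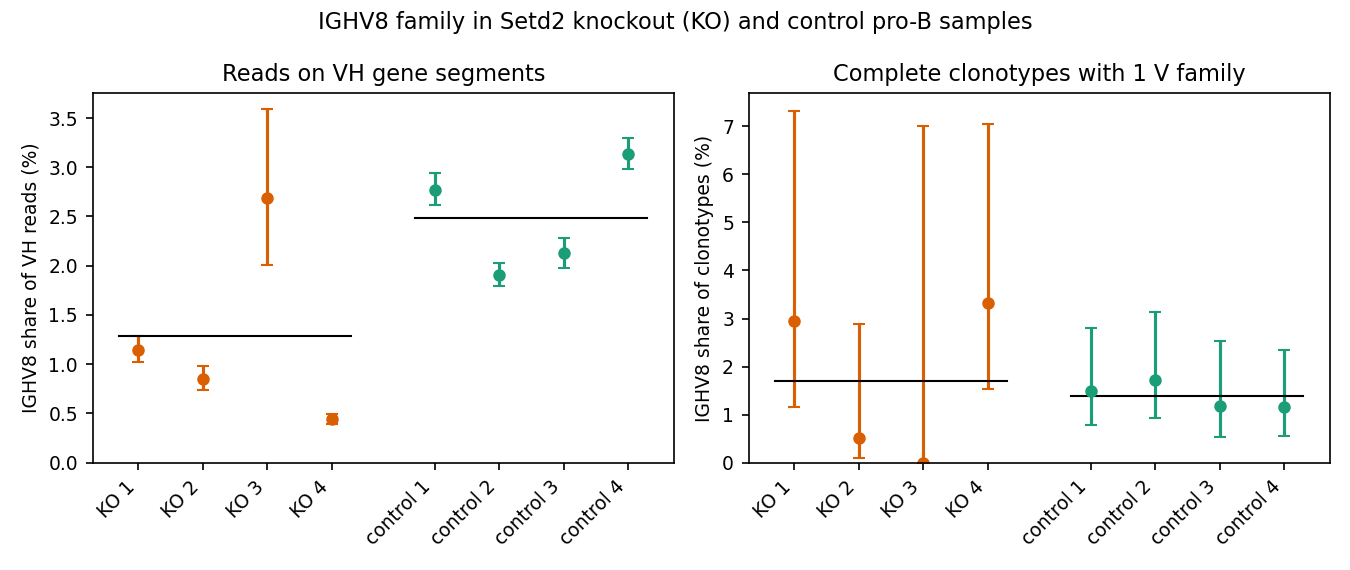
IGHV8 as a percent of VH reads (left) and of complete clonotypes with 1 V family (right), 1 point per sample, with 95% Wilson intervals (counting error only) and group means as black lines. By reads, knockouts 1, 2 and 4 lie at 0.439% to 1.15% and the controls at 1.90% to 3.14%, with knockout 3 at 2.69%. By clonotypes the groups overlap.

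The members differed widely in level. Of 5042 IGHV8 reads, IGHV8-8 held 2208, IGHV8-12 held 2198 and IGHV8-5 held 368, and the other 9 genes held between 5 and 72 each. These 3 genes made up 93.2% to 97.6% of family reads in knockouts and 91.0% to 96.3% in controls. The number of members with at least 1 read was 6, 7, 5 and 8 in knockouts 1 to 4 and 9, 12, 7 and 11 in controls 1 to 4, at unequal depth.

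IGHV8-8 and IGHV8-12 were the most abundant members. IGHV8-8 held 0.188%, 0.112%, 0.916% and 0.302% of VH reads in knockouts 1 to 4, from 48, 25, 15 and 171 reads. It held 0.827%, 0.952%, 1.19% and 1.54% in controls 1 to 4, from 323, 505, 424 and 697 reads. Knockouts 1, 2 and 4 lay below all controls, and knockout 3 lay between controls 1 and 2. The mean was 0.380% ± 0.366 in knockouts and 1.13% ± 0.314 in controls, a log2 fold change of -1.68 (SE 0.80, edgeR, Benjamini-Hochberg adjusted p = 0.175). With locus reads as library size it was -2.49 and passed (edgeR, Benjamini-Hochberg adjusted p = 0.0449). Under that setting 26 of 130 VH genes passed, and 1 of 10 IGHV8 genes, so the pass is not particular to this gene.

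IGHV8-12 varied from sample to sample and had the higher mean share of the pair in knockouts. Its share was 0.834%, 0.626%, 1.53% and 0.0814% in knockouts 1 to 4, from 213, 140, 25 and 46 reads. Controls 1 to 4 had 1.74%, 0.644%, 0.558% and 1.22%, from 681, 342, 198 and 553 reads. The groups overlapped throughout, and only knockout 4 stood below all controls. Means were 0.767% ± 0.598 in knockouts and 1.04% ± 0.553 in controls, with a log2 fold change of -0.48 (SE 0.83, edgeR with Benjamini-Hochberg adjusted p = 0.766) that turned to 0.14 with TMM scaling and 0.23 with DESeq2.

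IGHV8-5 was the third most abundant member. Its share was 0.0979%, 0.0581%, 0.122% and 0.0336% in knockouts 1 to 4, from 25, 13, 2 and 19 reads. It was 0.0973%, 0.136%, 0.268% and 0.230% in controls 1 to 4, from 38, 72, 95 and 104 reads. Knockouts 2 and 4 lay below all controls, and knockouts 1 and 3 lay between controls 1 and 2. The mean was 0.0780% ± 0.0396 in knockouts and 0.183% ± 0.0794 in controls, a log2 fold change of -1.36 (SE 0.77, edgeR with Benjamini-Hochberg adjusted p = 0.257). Under TMM and DESeq2 scaling the log2 fold changes kept their sign but were smaller, at -0.67 and -0.63 for IGHV8-8 and at -0.34 and -0.29 for IGHV8-5.

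The balance of the 2 leading members also varied within each group. IGHV8-8 reads were 0.225, 0.179, 0.600 and 3.72 times the IGHV8-12 reads in knockouts 1 to 4. The ratio was 0.474, 1.48, 2.14 and 1.26 in controls 1 to 4. IGHV8-12 led in knockouts 1, 2 and 3 and in control 1, and IGHV8-8 led in the other samples. Without IGHV8-12, the rest of the family made up 0.313%, 0.228%, 1.16% and 0.357% of VH reads in knockouts 1 to 4 and 1.03%, 1.26%, 1.57% and 1.91% in controls 1 to 4, where knockout 3 again lay among the controls.

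**Figure D2:**
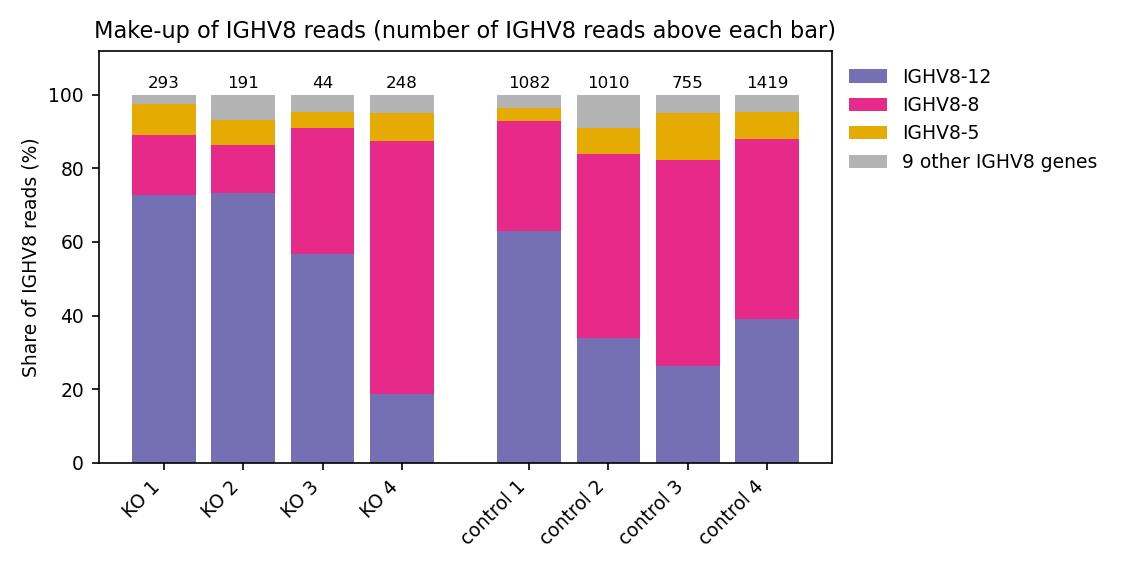
Make-up of IGHV8 reads in each sample as stacked percentages, with the number of IGHV8 reads above each bar. IGHV8-12 holds 72.7% and 73.3% in knockouts 1 and 2 and 18.5% in knockout 4, against 26.2% to 62.9% in controls.

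Among the scarcer members, the pseudogene IGHV8-10 and the V gene IGHV8-11 had every knockout below every control. IGHV8-10 had 0, 2, 0 and 3 reads in knockouts 1 to 4 and 10, 14, 9 and 8 in controls 1 to 4. IGHV8-11 had 3, 0, 0 and 4 reads in knockouts 1 to 4 and 6, 11, 15 and 33 in controls 1 to 4. In knockout 3 a count of 0 allows a share of up to 0.183%, which is above every control's share of either gene, so a 0 there does not set that sample apart from the controls. Log2 fold changes were -2.29 (SE 1.01) for IGHV8-10 and -2.54 (SE 1.04) for IGHV8-11, with edgeR Benjamini-Hochberg adjusted p of 0.158 and 0.141.

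IGHV8-4 had 0, 0, 1 and 1 reads in knockouts 1 to 4 and 1, 52, 10 and 2 in controls 1 to 4. Most of its reads came from control 2, and its log2 fold change of -3.63 (SE 1.64, edgeR with Benjamini-Hochberg adjusted p = 0.159) was -2.06 without that sample. IGHV8-6 had 3, 2, 1 and 3 reads in knockouts 1 to 4 and 4, 4, 4 and 5 in controls 1 to 4, an even low count in every sample. IGHV8-2 had 0, 7, 0 and 0 reads in knockouts 1 to 4 and 8, 3, 0 and 1 in controls 1 to 4. Fitted log2 fold changes were 0.17 for IGHV8-6, which turned to -0.24 without knockout 3, and 0.32 for IGHV8-2, which turned to -4.44 without knockout 2 and to -0.06 without control 3.

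The pseudogene IGHV8-7 and the V gene IGHV8-13 had 0 reads in all 4 knockouts. IGHV8-7 had 11, 2, 0 and 0 reads in controls 1 to 4, and IGHV8-13 had 0, 3, 0 and 9. Against a floor of 3 reads over the summed knockouts, IGHV8-7 was at least 2.66-fold lower and IGHV8-13 at least 2.45-fold lower in knockouts. Control 1 held 11 of the 13 IGHV8-7 reads and control 4 held 9 of the 12 IGHV8-13 reads. Without that control the share in controls was 0.00149% for IGHV8-7 and 0.00235% for IGHV8-13, under the knockout floor of 0.00283%, and neither bound held. IGHV8-9, with 0, 0, 0 and 1 reads in knockouts 1 to 4 and 0, 1, 0 and 6 in controls 1 to 4, and IGHV8-14, with 1, 2, 0 and 0 reads in knockouts 1 to 4 and 0, 1, 0 and 1 in controls 1 to 4, stayed under the minimum of 10 reads and were not tested.

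**Figure D3:**
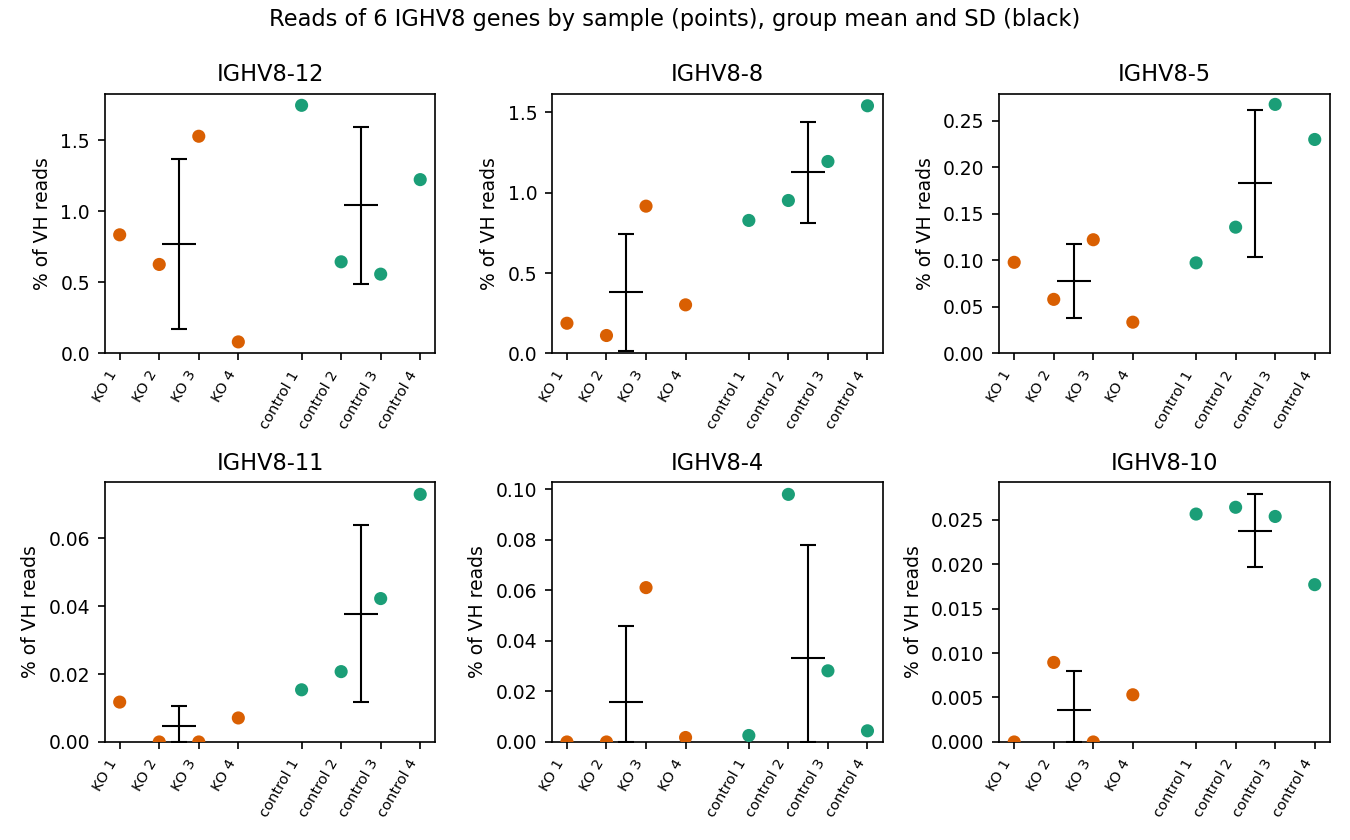
Percent of VH reads for 6 IGHV8 genes, 1 point per sample, with the group mean and SD in black (the SD bar stops at 0). Knockouts 1, 2 and 4 lie below all controls for IGHV8-8, IGHV8-11, IGHV8-4 and IGHV8-10, as they do for 33.1% of VH genes. The groups overlap for IGHV8-12 and IGHV8-5. For IGHV8-4, a count of 0 in knockouts 1 and 2 allows up to 0.0117% and 0.0134%. Both exceed the shares of control 1 (0.00256%) and control 4 (0.00442%), so these knockouts are not shown to be lower.

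Over the 10 members tested, edgeR's quasi-likelihood test called 0 lower and 0 higher after Benjamini-Hochberg adjustment over 130 VH genes, where 0% of genes were called in each direction, and DESeq2 called 0 of the 6 members to which it gave an adjusted p, with 0 of 10 at an unadjusted p under 0.05. Over all VH genes with an adjusted p, DESeq2 called 5.56%. At an unadjusted edgeR p under 0.05, 3 of 10 members were lower (IGHV8-4, IGHV8-10 and IGHV8-11), against 26.2% of all VH genes, and 0 were higher, against 1.54%. The groups did not overlap for 2 of 10 members, against 24.6% of VH genes, and without knockout 3 for 4 of 10, against 33.1%. Fitted differences were below 0 for 8 of 10 members, against 74.6% of VH genes. These shares are near those of VH genes at large. Of the 10 members, 7 had under 10 reads over the knockouts and reached the minimum of 10 only with control reads added, so the counts and medians over these members describe a set chosen in part by its control reads.

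The size of the median difference depended on scaling. The median log2 fold change was -1.98 for the 10 IGHV8 genes, -1.38 if IGHV8-7 and IGHV8-13 are put at their bounds, and -0.82 for all 130 VH genes by share of VH reads. Under TMM the medians were -0.81 for IGHV8 and 0.18 for all VH genes, and with DESeq2 they were -0.77 and 0.20. With the genes over 10% of VH reads in any sample left out of the library size, they were -1.43 and -0.42. By share of VH reads the medians of other groups were -1.03 for 69 IGHV1 genes, -0.78 for 33 intermediate genes and -0.09 for 18 proximal genes of families IGHV2 and IGHV5.

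**Figure D4:**
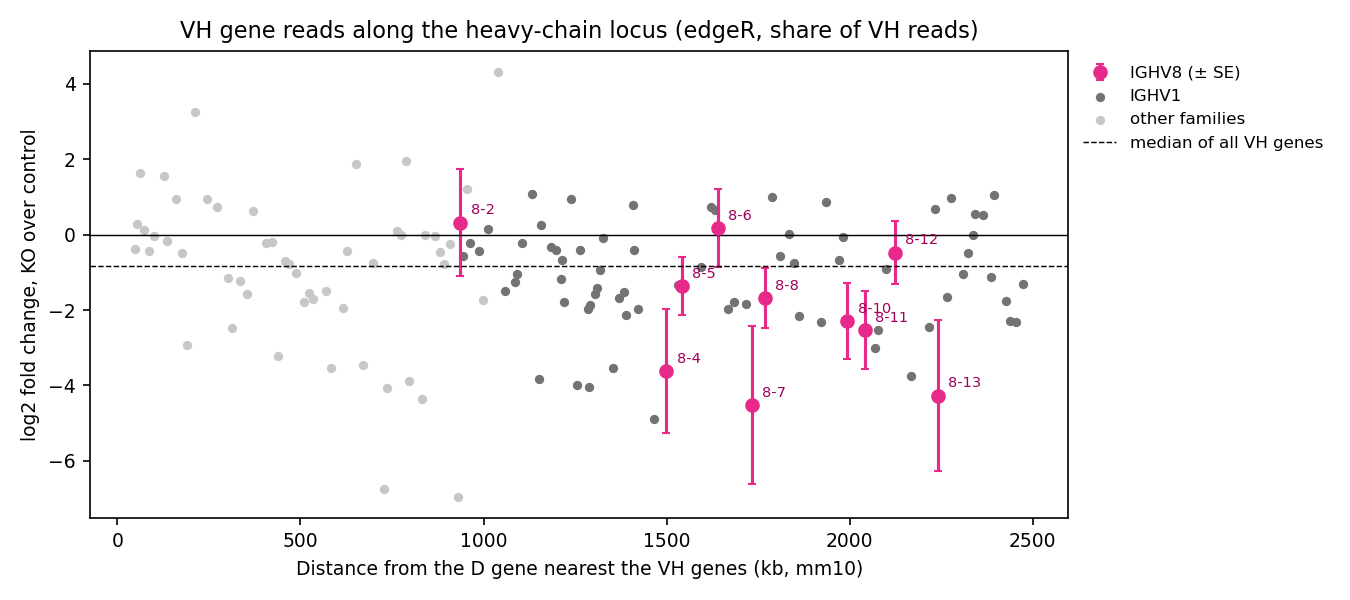
Log2 fold change (knockout over control, edgeR, share of VH reads) of 130 VH genes against distance in kb from the D gene nearest the V genes, with IGHV8 genes and their SE in colour, IGHV1 genes in dark grey and other families in light grey. IGHV8 genes from 1499 to 2240 kb run from 0.17 to -4.52, with IGHV1 genes interspersed over the same stretch. IGHV8-7 and IGHV8-13 were at 0 in every knockout, so their fitted values depend on the prior count.

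IGHV1 genes lie on both sides of each main IGHV8 gene and share its distance from the D segments. Beside IGHV8-8, IGHV1-58 had a log2 fold change of 0.99 (SE 0.90). Beside IGHV8-12, IGHV1-69 was at -0.90 (SE 0.66) and the pseudogene IGHV1-70 at -3.76 (SE 1.33). Beside IGHV8-5, IGHV1-49 was at -1.35 (SE 1.14) and IGHV1-50 at -0.86 (SE 0.75), and beside IGHV8-6, IGHV1-53 was at 0.67 (SE 0.78) and IGHV1-54 at -1.96 (SE 0.82). None of these 7 neighbours passed edgeR's test with Benjamini-Hochberg adjustment (adjusted p 0.101 to 0.608), and their directions were mixed. The pseudogene IGHV1-57, on the other side of IGHV8-8, had no entry among the counted genes.

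The ratio of IGHV8 to IGHV1 reads set the family against those neighbours. IGHV8 reads were 2.40%, 1.23%, 4.37% and 0.722% of IGHV1 reads in knockouts 1 to 4 and 4.33%, 2.84%, 3.43% and 4.93% in controls 1 to 4. Knockout 3 lay within the controls and the others below. The log2 difference was -1.12 (2-sided exact permutation p = 0.143, adjusted p = 0.214 over 3 ratios). In knockout 4, IGHV1-81 held 23.9% and IGHV1-15 12.4% of VH reads, which enter the IGHV1 sum. With the genes over 10% of VH reads in any sample left out, the log2 difference was -0.81 (2-sided exact permutation p = 0.114). It turned to 0.31 when genes were averaged equally as log2(percent + 0.01) in place of summed. The added 0.01 exceeded the mean shares of IGHV8-2, IGHV8-7 and IGHV8-13 in both groups, so their differences were damped.

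IGHV8 reads were 3.31%, 10.3%, 15.5% and 1.37% of proximal reads (families IGHV2 and IGHV5) in knockouts 1 to 4 and 21.6%, 13.8%, 17.2% and 27.4% in controls 1 to 4. Only knockout 3 overlapped the controls. The log2 difference of -1.90 did not pass (2-sided exact permutation p = 0.0571, adjusted p = 0.171), where the smallest p that 4 against 4 samples allow is 0.0286. This denominator holds single genes with large shares in 1 knockout, IGHV5-9-1 at 27.6% of VH reads in knockout 4 and IGHV2-2 at 16.3% in knockout 1. With the 4 genes that held over 10% in any sample left out (these, IGHV1-81 and IGHV1-15), the log2 difference was -1.04. As a mean over genes of log2(percent + 0.01) in place of a sum it was -0.13 (2-sided exact permutation p = 0.914), with scarce members damped in the same way.

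The VH genes of other families whose pattern over the 8 samples was most like the summed IGHV8 share were sought among 120 genes, by the root mean square difference of log2 shares after each gene's mean was removed. IGHV1-43 was the most alike at 0.516, followed by the pseudogene IGHV1-62 at 0.518, IGHV5-17 at 0.520, IGHV1-61 at 0.536 and IGHV1-50 at 0.599, against a median of 1.11 over the 120. IGHV1-43 had only 7, 5, 1 and 5 reads in knockouts 1 to 4, so its place in this order is uncertain. IGHV5-17 lies in the proximal part of the locus, 334 kb from the D segments. Its share was 0.317%, 0.514%, 1.53% and 0.469% in knockouts 1 to 4 and 1.53%, 1.53%, 1.55% and 1.73% in controls 1 to 4, so it too was near the controls in knockout 3.

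Clonotypes count each different complete CDR3 sequence once, whatever its number of contig reads. Near-identical sequences count separately, as did a pair in control 2 that differed by 1 base and encoded the same protein. RNA level can also affect which CDR3s were assembled, so the counts are not free of it. IGHV8 gave 4, 1, 0 and 6 clonotypes in knockouts 1 to 4, of 136, 192, 51 and 181 with V genes of 1 family. It gave 9, 10, 6 and 7 in controls 1 to 4, of 606, 581, 511 and 609. The shares were 2.94%, 0.521%, 0% and 3.31% in knockouts and 1.49%, 1.72%, 1.17% and 1.15% in controls. Knockouts 1 and 4 lay above all controls and knockouts 2 and 3 below, and the 0 of 51 in knockout 3 allows a share of up to 5.88%.

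The mean share of clonotypes was 1.69% ± 1.68 in knockouts and 1.38% ± 0.273 in controls, a difference of 0.312 percentage points (2-sided exact permutation p = 0.657, adjusted p = 0.92 over 14 families, of which 0% were called and 0 had an unadjusted p under 0.05). The ratio of IGHV8 to IGHV1 clonotypes likewise overlapped, with a log2 difference of 0.38 (2-sided exact permutation p = 0.543). With every contig counted, its CDR3 complete or not, an alternative chosen after seeing the data, IGHV8 had 6, 2, 1 and 8 contigs in knockouts 1 to 4 and 35, 28, 25 and 23 in controls 1 to 4, and its mean share was 1.82% in knockouts and 2.73% in controls (2-sided exact permutation p = 0.257). Complete IGHV8 clonotypes held 178 contig reads in all, and the V segments held 5042 reads. The counts differ in kind, since such a contig must hold a complete CDR3 and list only IGHV8 genes. Their ratio is therefore not the part of the family's RNA that the clonotypes sample.

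CDR3 sequences of IGHV8 clonotypes are shown because they tie the read shares to joined V genes. They are the largest of each sample that had any, the other knockout clonotypes of over 3 reads, and a near-identical sequence of control 2. Further control clonotypes, such as 1 of 10 reads in control 4 and 1 of 6 reads in control 2, are not shown. The capitals mark the unbroken match, from the cysteine codon onward, to the germline end of IGHV8-8, IGHV8-12 or IGHV8-5, whichever was longest. The lower case bases after it hold bases added at the joints and the D and J segments. They can also hold V bases beyond a mismatch, so the change of case need not mark the end of the V segment.
Knockout 4, 8 reads: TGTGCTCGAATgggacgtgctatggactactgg
Knockout 4, 4 reads: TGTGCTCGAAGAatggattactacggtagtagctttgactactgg
Knockout 1, 4 reads: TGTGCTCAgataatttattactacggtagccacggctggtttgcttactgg
Knockout 1, another of 4 reads: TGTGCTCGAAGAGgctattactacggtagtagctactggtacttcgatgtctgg
Knockout 2, 1 read: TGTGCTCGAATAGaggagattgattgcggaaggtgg
Control 2, 54 reads: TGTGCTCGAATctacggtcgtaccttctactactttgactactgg
Control 2, 7 reads: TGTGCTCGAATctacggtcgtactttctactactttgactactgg
Control 4, 13 reads: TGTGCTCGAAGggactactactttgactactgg
Control 1, 5 reads: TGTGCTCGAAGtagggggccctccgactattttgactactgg
Control 3, 4 reads: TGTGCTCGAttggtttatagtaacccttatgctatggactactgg
The knockout clonotypes of over 3 reads, all in knockouts 4 and 1, had 8, 4, 4 and 4 reads. The largest of controls 1 to 4 had 5, 54, 4 and 13 reads, and the near-identical pair in control 2 had 61 reads together. The 2 sequences of control 2 differed by 1 base, C24T counted from 1 at the first base of the CDR3, and encoded the same protein. No IGHV8 CDR3 was found in more than 1 sample (0 of 43).

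The listed V genes of a contig often could not be narrowed to 1 gene. Of the 43 complete clonotypes, 13 listed IGHV8-8 alone (3 in knockouts and 10 in controls), 1 listed IGHV8-4 alone and 29 listed several IGHV8 genes, all of them with IGHV8-12 among them. The fourth residue of the CDR3, the last full codon in the germline ends of IGHV8-5, IGHV8-8 and IGHV8-12, was isoleucine in 16 clonotypes, arginine in 8, serine in 6 and another residue in 13. In knockouts it was isoleucine in 5 of 11 and arginine in 4 of 11, and in controls isoleucine in 11 of 32 and arginine in 4 of 32. Over all 128 contigs, complete or not, isoleucine stood there in 25 of 49 that listed IGHV8-8 alone. It stood there in 0 of 35 that listed several genes with IGHV8-12 and without IGHV8-13, of which 14 had arginine, the residue that IGHV8-12 encodes. Among the 40 that listed both IGHV8-12 and IGHV8-13, 15 had isoleucine and 9 arginine, so a listing with IGHV8-12 did not fix the residue. The listing and the CDR3 come from the same contig, so these counts describe the assignments.

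CDR3 length was compared within samples that had at least 3 IGHV8 clonotypes, which left knockouts 1 and 4 and the 4 controls. IGHV8 CDR3s averaged 16.8 and 13.5 amino acids in knockouts 1 and 4 and 13.9, 13.5, 14.3 and 12.6 in controls 1 to 4. CDR3s of all other families averaged 13.8 and 13.8 in knockouts 1 and 4 and 13.1, 13.3, 13.1 and 13.3 in controls 1 to 4. IGHV8 CDR3s were longer in 4 of 6 samples and shorter in knockout 4 and control 4. The mean difference of 0.698 ± 1.33 amino acids (SD, n = 6) did not pass (2-sided exact sign-flip permutation p = 0.281, smallest possible 0.0312). It was 0.242 without knockout 1, whose 4 clonotypes gave a difference of 2.98, and 0.225 with clonotypes weighted by contig reads. The knockout mean of 15.1 exceeded the control mean of 13.6 by 1.55 with 2 against 4 samples (2-sided exact permutation p = 0.533, smallest possible 0.133).

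A JH segment was listed for 26 IGHV8 clonotypes, 7 in knockouts and 19 in controls. Among these, IGHJ2 was listed for 2 of 7 in knockouts and for 16 of 19 in controls. The other labelled control clonotypes listed IGHJ4, 3 in all. The knockouts had 2 with IGHJ1, 1 with IGHJ3 and 2 with IGHJ4. Complete clonotypes without a listed JH occurred in both groups and were left out. The JH counts and shares therefore describe labelled clonotypes only, and do not show that a segment was unused. Complete control clonotypes without a label included CDR3s that ended like those labelled IGHJ1, IGHJ3 or IGHJ4. Whether labels were given evenly over the JH segments was not tested, so the shares below can reflect the labelling. Both near-identical sequences of control 2 listed IGHJ2 and count separately. Over the 6 samples IGHJ2 made up 62.5% ± 37.9 of IGHV8 clonotypes and 43.7% ± 5.54 of those of other families (2-sided exact sign-flip permutation p = 0.188, adjusted p = 0.375 over 4 JH segments), and IGHJ2 was higher in IGHV8 in 5 of 6 samples. IGHJ3 made up 5.56% ± 13.6 of IGHV8 clonotypes and 19.8% ± 2.16 of those of other families (2-sided exact sign-flip permutation p = 0.0625, adjusted p = 0.25). The IGHJ2 share of labelled IGHV8 clonotypes was 56.2 percentage points lower in knockouts than in controls, over 2 against 4 samples (2-sided exact permutation p = 0.267). That design cannot give a p under 0.133. The within-sample differences of the 4 JH segments did not pass.

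A D segment was assigned to 18 of the 43 complete clonotypes, by a match of at least 8 bases that was found with GENCODE M21. In knockouts 5 of 7 assigned clonotypes had IGHD1 and 0 had IGHD2, and in controls 3 of 11 had IGHD1 and 8 had IGHD2. Over all contigs, complete or not, 7 of 13 assigned in knockouts had IGHD1 and 4 had IGHD2, and in controls 24 of 66 had IGHD1 and 38 had IGHD2. These counts were not tested. A constant region was listed for 9 clonotypes, IGHA for 3 in knockouts and 5 in controls and IGHM for 1 in knockouts, so 8 of the 9 came from transcripts of a switched class, which pro-B cells do not normally express.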

How the data were processed

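Reads were aligned with STAR 2.5.1 to mm10, per the submitters' processing notes, and immunoglobulin reads were assembled with TRUST, per the series design text, whose version the sources used here do not state. The heavy-chain tables deposited by the authors hold whole-number read counts per gene segment and per contig, with no normalization. Light-chain tables were not used. Depth was 1637 to 56542 VH reads per sample.

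The members, lists and tests were chosen with earlier results of these data known. Reads per VH gene with at least 10 counts over 8 samples, and reads per family, were compared with edgeR 4.0.16 (quasi-likelihood, R 4.3.3, total VH reads as library size, no further scaling, Benjamini-Hochberg adjusted p under 0.05). DESeq2 1.42.0, TMM, other library sizes, no filter, a block for the replicate number, other definitions of a clonotype and each sample left out were alternatives. Clonotype shares and log2 ratios (0.5 added to clonotype counts) were compared by 2-sided exact permutation over 70 arrangements, and differences within samples by exact sign flips. Likeness and the ratios taken as means over genes used log2(percent + 0.01). Scripts were tested on simulated data and used Python 3.11.15, numpy 2.4.6, pandas 2.3.3, scipy 1.17.1, Biopython 1.88 and matplotlib 3.10.9. Wilson intervals (95%) and floors of 3 counts cover counting error only, since reads carry no molecular identifiers.

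Named genes were all IGHV8 genes, the IGHV1 genes flanking IGHV8-5, IGHV8-6, IGHV8-8 and IGHV8-12, the 5 genes of other families most like the family, genes over 10% of VH reads in any sample, and the largest IGHV8 clonotype of each sample. Counts of contigs whose CDR3 was complete or not, of groups apart without knockout 3, and the control shares of IGHV8-7 and IGHV8-13 without 1 control were added after seeing the data. Complete IGHV8 contigs number 43, so clonotype results have low precision.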

Additional observations from a re-analysis of the deposited data

Results flagged for a closer look

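In 5 of 30 groups of 4 samples examined (15 readouts in each group), 1 sample stood apart from the other 3 by a gap test for small groups. Chance gives this in about 1 of 20 groups of normally distributed values. Low counts with many zeros are not such values, so the 5 of 30 cannot be set against that rate. All 5 concern members with few reads. IGHV8-2 held 0.0313% of VH reads in knockout 2 (7 reads) and 0 reads in the other knockouts. IGHV8-4 held 0.0611% in knockout 3 and at most 0.00177% in the other knockouts, and IGHV8-6 held 0.0611% in knockout 3 and 0.00531% to 0.0117% in the others. Both knockout 3 values rest on 1 read of 1637. IGHV8-7 held 0.0282% in control 1 (11 reads) and at most 0.00377% in the other controls. IGHV8-10 held 0.0177% in control 4 (8 reads) and 0.0253% to 0.0264% in the other controls.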

How the results depend on the processing

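Over 250 alternative values of 22 results, 229 kept their direction and their side of the threshold, 18 reversed, 1 crossed the threshold and 2 counts moved; the causes were not tested. With locus reads as library size, 1 of 10 IGHV8 genes was called in place of 0 (IGHV8-8, log2 fold change -2.49). Over all VH genes 26 of 130 were called in place of 0, and IGHV8-6 turned to -0.14. Calls over all VH genes were 6 with DESeq2 and 6 with no filter. Without knockout 3 the members with groups apart were 4 in place of 2. IGHV8-12 turned to 0.14 with TMM and 0.23 with DESeq2. The difference in clonotype share turned to -0.43 percentage points with a single listed V gene, to -1.16 weighted by contig reads and to -0.91 with all contigs, and ran from -0.23 (without knockout 4; -0.10 without knockout 1) to 0.88 with 1 sample left out. The IGHV8 to IGHV1 log2 ratio of clonotypes turned to -1.30 weighted by reads and -0.47 with all contigs, and ran from -0.00285 (without knockout 1) to 0.81. The ratio of reads turned to 0.31 as a mean over genes. With 1 sample left out, IGHJ4 use ran from -7.07 to 3.18 percentage points (turning without controls 1 and 4, to 2.43 and 3.18), IGHV8-2 from -4.44 to 1.55 (-0.06 without control 3) and IGHV8-6 from -0.24 to 0.56. The family difference ran from -1.61 to -0.70, and over the other alternatives from -1.74 (locus reads) to -0.40 (DESeq2).

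With the replicate number as a block, IGHV8-2 turned to -0.76, the family log2 fold change was -1.23 (edgeR, Benjamini-Hochberg adjusted p = 0.616), 0 IGHV8 genes were called and 15 VH genes in all. Same-numbered samples deviated together with correlations of 0.0882 to 0.175, over 0.1 for 2 of 4 pairs, and 3 of 4 knockouts correlated best with their own number. The numbers were not taken as pairs because the labels do not say what same-numbered samples share. Whether they share a source was not tested. JH use with a single listed V gene gave no value, as too few clonotypes remained. Knockout 3, with 1637 VH reads, and the 11 knockout clonotypes limit what could be detected.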
